A study of Mus musculus with 6 samples.

Results

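The 48 genes described here encode the protein side of the splicing machinery: 12 SR proteins, 23 proteins of the spliceosomal snRNPs and the U2AF pair, 6 hnRNPs, and 7 SR-related or other nuclear splicing factors. They were taken by mouse symbol from per-library gene counts that list 27179 genes, and each of the 48 was found. The rule used no measured value. The study compared circulating red cells between mice that carry 1 copy of the C587R missense allele of Nxf1, which encodes the principal receptor that carries messenger RNA out of the nucleus, and littermates without it. All animals were males on a BalB/c background. There were 3 Nxf1+/C587R heterozygotes and 3 Nxf1+/+ littermates, each giving 1 library of polyadenylated RNA from erythrocytes, and each of 3 batches named in the labels held 1 animal of either genotype. The comparison is of genotypes of the whole animal, not of a change limited to red cells. The red cells were pelleted through Ficoll from heart blood, and flow cytometry was used to check them for platelets, CD45+ cells and nucleated cells. No age was given in the labels.

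SR proteins carry arginine- and serine-rich tails, bind exonic enhancer sequences and help to recruit the spliceosome to nearby splice sites. The snRNPs are particles of a small nuclear RNA, a shared ring of Sm proteins and particle-specific proteins: U1 marks the 5′ splice site, U2 with U2AF marks the branch point and 3′ splice site, and the U5-containing tri-snRNP brings the catalytic centre. The hnRNPs coat nascent transcripts and often counteract SR proteins, and several members of both families accompany messenger RNA through its export by Nxf1. Mouse erythrocytes have no nucleus and make no new transcripts, so their messages are carried over from the reticulocyte and the erythroblast before it.

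Total counts ran from 14636739 to 15790336 per library, and globin genes took 88.1 to 89.2% of them, leaving 1629287 to 1879543 non-globin counts. Genes with at least 10 counts numbered 2103 to 2772 in heterozygotes and 2741 to 4096 in wild type. Transcripts typical of other tissues were present. The 28 hepatocyte markers summed to 2315 to 4991 counts in heterozygotes and 15 to 107 in wild type, and wild-type replicate 1 alone held 443 counts of exocrine pancreas genes against 0 to 3 elsewhere. Wild-type replicate 1 is the library in which splicing factors were highest, and values without it are given beside the main results.

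Splicing-factor transcripts made up a small share of the counts in these cells. The 48 genes together had 477, 564 and 708 counts in mutant replicates 1, 2 and 3 and 1234, 771 and 1072 counts in wild-type replicates 1, 2 and 3. As shares of non-globin counts these sums were 0.0290, 0.0344 and 0.0435% in heterozygotes and 0.0709, 0.0470 and 0.0570% in wild type. Each mutant library lay below each wild-type library on this scale, and the mean per 1000000 non-globin counts (non-globin CPM) was 356 ± 73.1 in heterozygotes and 583 ± 120 in wild type (SD, n = 3 each), a ratio of 0.611. Without wild-type replicate 1 the ratio was 0.685. Most genes were lower on this scale: 69.9% of genes with any count had a lower mean share in heterozygotes. Of the 2823 genes with enough counts to be tested, 29.1% had every mutant share below every wild-type share, and 5.81% had the reverse. After TMM scaling, which sets the libraries level on the bulk of their expressed genes, the sums were 43.7, 47.4 and 45.7 CPM (per 1000000 scaled counts of all genes) in heterozygotes and 64.8, 47.0 and 55.2 in wild type. On that scale mutant replicate 2 lay above wild-type replicate 2, the groups overlapped, and the ratio was 0.819. In bulk samples such as these, fewer cells that hold a transcript and less of it per cell cannot be told apart.

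**Figure D1:**
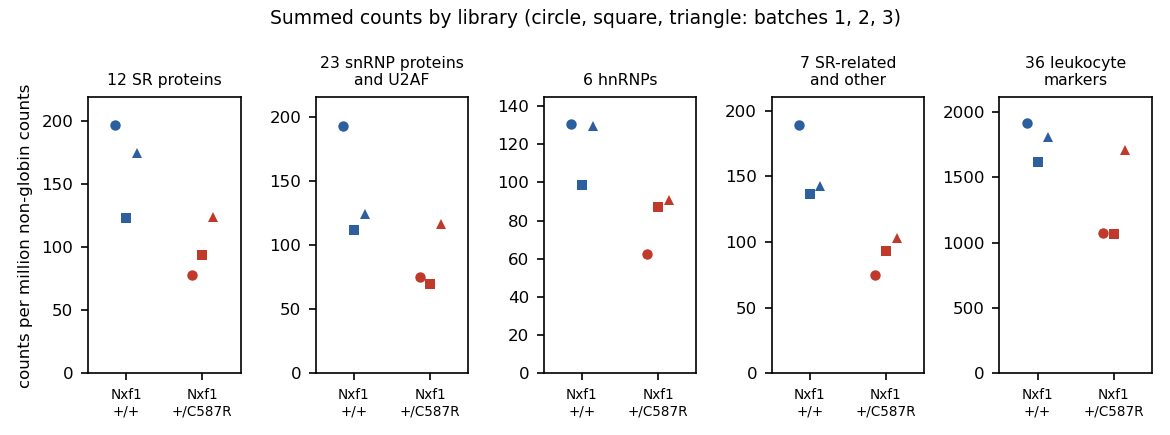
Summed non-globin CPM (vertical axis, from 0) of 4 groups of splicing factors and of 36 leukocyte markers, with 1 point per library, blue for Nxf1+/+ and red for Nxf1+/C587R. Wild-type batch 1 (circle) is the highest point in every panel; the 6 hnRNPs and the 7 SR-related and other factors do not overlap between genotypes, while the 12 SR proteins and the 23 snRNP proteins overlap through wild-type batch 2 and mutant batch 3.

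Leukocyte transcripts differed between libraries on the same scale. Of 36 markers of T and NK, B and myeloid cells, 31 to 34 were seen in each library, and Elane was at 0 in all 6. Their sums were 1078, 1065 and 1709 non-globin CPM in heterozygotes and 1914, 1622 and 1812 in wild type, so that mutant replicates 1 and 2 were lowest. In TMM-scaled CPM the sums overlapped, at 163, 147 and 180 in heterozygotes and 175, 162 and 175 in wild type. The 11 T and NK markers alone did not overlap on either scale, with 14.6, 24.4 and 17.2 non-globin CPM in heterozygotes and 39.6, 59.7 and 86.7 in wild type. Of these Gzma and Tcf7, named after their values were seen, had log2 differences of −2.10 (SE 0.45, edgeR adjusted p = 0.00428) and −2.0 (SE 0.47, edgeR adjusted p = 0.00913). In heterozygotes they had only 3, 7 and 4 counts (Gzma) and 3, 3 and 4 (Tcf7), so they were tested only because of their wild-type counts. Leaving out a library or batch gave edgeR adjusted p up to 0.212 and 0.134, and DESeq2 gave 0.0131 and 0.0642. Lyz2, a myeloid marker, went the other way at 0.91 (SE 0.27, edgeR adjusted p = 0.0711), or 0.00138 with batch as a term. The 48 splicing factors per leukocyte marker count gave 0.269, 0.323 and 0.254 in heterozygotes and 0.370, 0.290 and 0.315 in wild type, ranges that overlap. All 8 markers of dividing, nucleated erythroblasts were seen with the libraries pooled, at 66.5 to 79.2 non-globin CPM in heterozygotes and 91.9 to 144 in wild type. Ccnb1, Cdk1, Myb and Kit were at 0 in some libraries. Most of the counts were Mki67, which marks any dividing cell, with 86, 85 and 92 in heterozygotes and 124, 159 and 220 in wild type. Top2a had 8, 6 and 7 against 3, 4 and 11. In TMM-scaled CPM the erythroblast sums overlapped, at 8.33 to 10.8 and 8.40 to 14. The part of leukocyte or erythroblast RNA in the splicing-factor counts was not tested.

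Read per kb of gene length, the scale on which genes can be compared with each other, abundance spanned a wide range. Values here are non-globin CPM per kb, averaged over the 6 libraries. Srsf5, an SR protein first described as a delayed early gene of growing liver cells, was highest at 12.8 ± 3.90 (SD, n = 6), at the 95.5 percentile of the 16396 genes with any count. Srsf11 followed at 9.11 ± 1.65, Hnrnpa2b1 at 8.85 ± 2.68, Rbm39 at 8.47 ± 3.15 and Snrnp70 at 7.86 ± 3.32. Each of these differed from the next by less than its own SD. U2af1, the small U2AF subunit that reads the AG of the 3′ splice site, was lowest at 0.398 ± 0.502 and the 48.7 percentile. Snrpc, the next lowest, stood at the 55.0 percentile. All members but U2af1 thus lay above the middle of the genes with any count. The class medians were 5.50 for the 6 hnRNPs, 3.82 for the 7 SR-related and other factors, 2.78 for the 12 SR proteins, 2.64 for the 7 Sm proteins, 1.53 for the 10 U2 and U2AF proteins, 1.42 for the 3 U5 and tri-snRNP proteins and 0.560 for the 3 U1 proteins. The low U1 median came from Snrpa and Snrpc, at 0.560 ± 0.468 and 0.526 ± 0.650, while Snrnp70 of the same particle ranked 5 of 48.

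**Figure D2:**
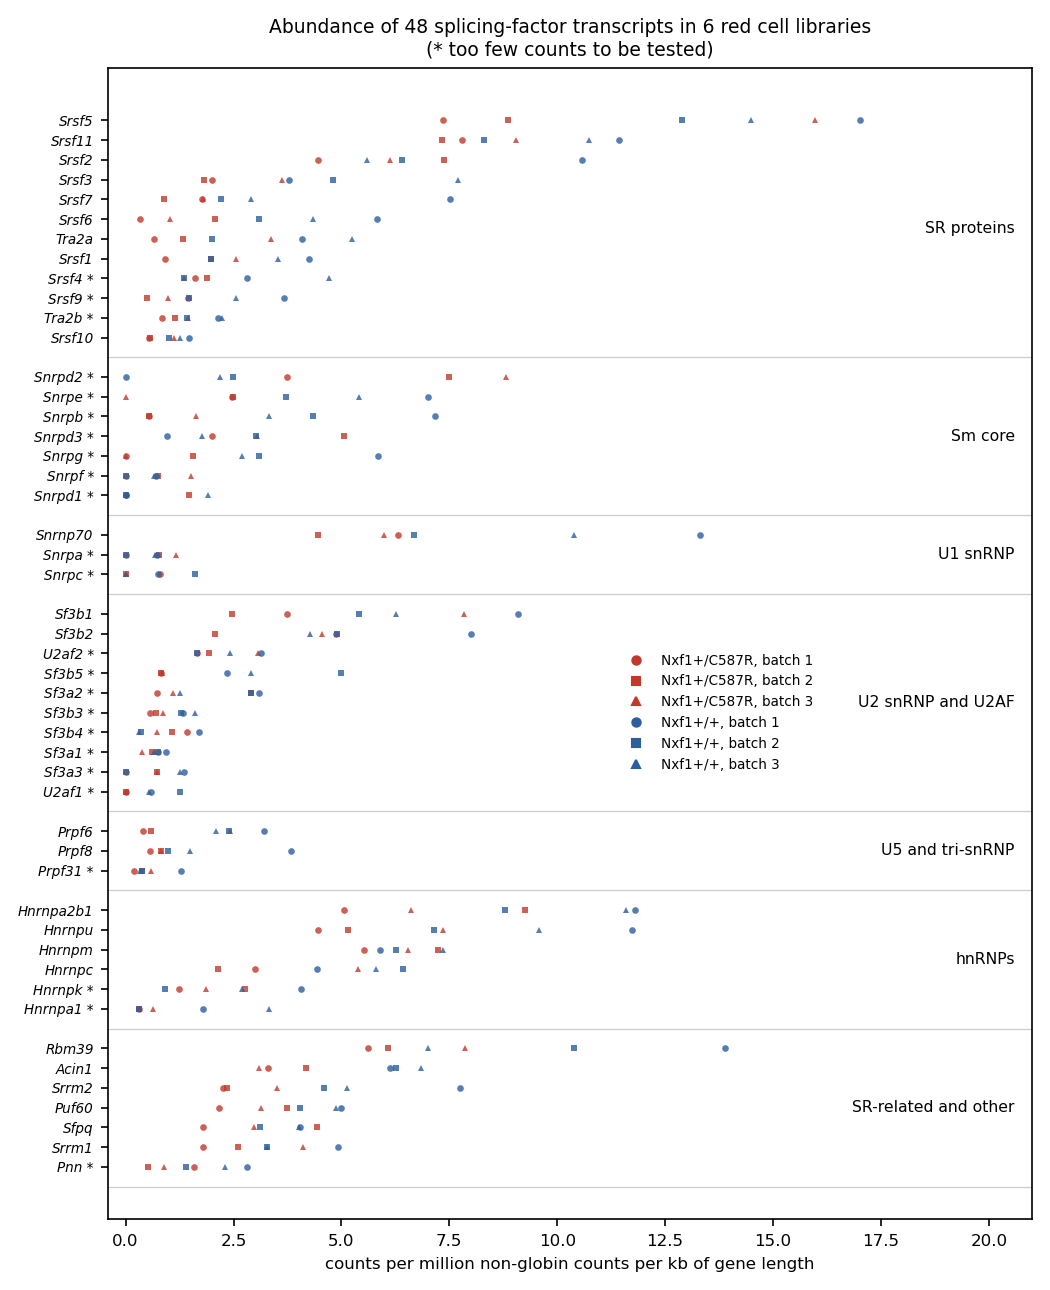
Abundance of the 48 transcripts as non-globin CPM per kb of gene length (horizontal axis), grouped by class, with 1 point per library, blue for Nxf1+/+ and red for Nxf1+/C587R. Srsf5 at a mean of 12.8 and Srsf11 at 9.11 lead, U2af1 at 0.398 is lowest, and an asterisk marks the 24 genes with too few counts to be tested.

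The genotypes were compared gene by gene with edgeR's quasi-likelihood test over all 2823 genes that passed a filter of about 10 counts in 3 libraries. Of the 48 splicing factors 24 passed, and the other 24, with 4 to 57 counts in all, did not. The filter does not treat the genotypes alike. Among the 24, 14 were over the cutoff in all 6 libraries, 8 in all wild-type but not all mutant libraries, and 0 the reverse; among all tested genes the last 2 figures were 789 and 152. Counts and medians over the 24 are therefore descriptions only. Srsf6, Srsf7, Srsf3 and Prpf8 are among the 8.

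Srsf6 was the only one of the 24 lower in heterozygotes at an adjusted p under 0.05, and 0 were higher. Among all genes tested, 1.06% (30) were lower and 5.99% (169) higher. Srsf6 was again the only one called when batch was added to the model, which called 2.13% of all genes lower and 6.87% higher. At an unadjusted p under 0.05 there were 4 splicing factors (Srsf6, Srrm2, Prpf8 and Srsf7), all lower in heterozygotes, and 523 genes in all, and DESeq2 called 0 of the 24 (0.39% of all genes lower, 6.27% higher). The median log2 fold change of the 24 was −0.30, against −0.06 for all tested genes, and 20 of 24 were below 0, against 54.9% of all tested genes. Without wild-type replicate 1 the median of the 24 then tested was −0.21, and 16 were below 0, against 50.3% of all genes. With no filter, all 48 could be fitted: their median was −0.28 against −0.15 for 16396 genes, and 34 of 48 were below 0 against 55.7%.

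The scale moved these values. Dividing by total counts alone, with no TMM factor, shifted the median of all genes by −0.48, to −0.53, and the share of calls that were higher in mutants fell from 84.9 to 31.9%. On that scale 3 of the 24 were called lower, Srsf6, Prpf8 and Srrm2, against 8.68% of all genes lower and 4.07% higher, and the median of the 24 was −0.77. Relative to the median of all genes the 24 stood at −0.24 with TMM scaling and at −0.23 with total counts. With total counts all 24 had a log2 fold change below 0, against 85.8% of all tested genes. All 24 also had a lower mean share of non-globin counts in heterozygotes, which was not counted over all tested genes. Of all 48, 43 had a lower mean share, against 69.9% of genes with any count, some of which had a single count. In TMM-scaled CPM 35 of 48 had a lower mean, against 57.5%.

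**Figure D3:**
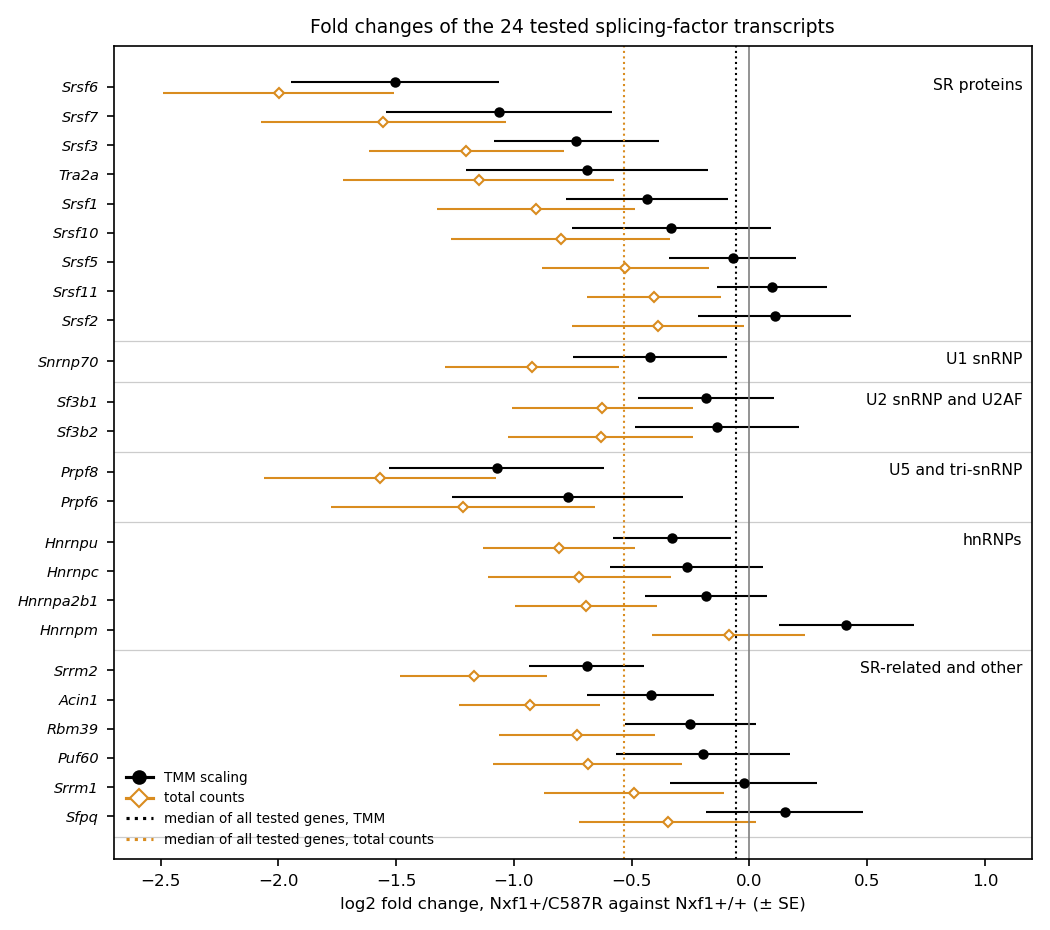
Log2 fold changes (horizontal axis, mutant against wild type, bars ± SE) of the 24 tested transcripts by class, with TMM scaling (black circles) and total counts (open orange diamonds), and dotted lines at the medians of all tested genes, −0.06 and −0.53. Srsf6 lies farthest to the left at −1.51 with TMM scaling, and Hnrnpm farthest to the right at 0.41.

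Among the 24 tested genes the SR proteins held the widest spread of fold changes, from −1.51 to 0.11. Their 12 genes gave 77.8, 93.9 and 124 non-globin CPM in heterozygotes and 196, 123 and 175 in wild type, or 98.6 ± 23.5 and 165 ± 37.7 (SD, n = 3 each). Mutant replicate 3 and wild-type replicate 2 met at the same level, so the groups overlapped. Of the 9 that were tested 1 was called, 7 were below 0 and the median log2 fold change was −0.43, or −0.24 without wild-type replicate 1 and −0.12 without batch 1. Of all tested genes 1.06% were called lower, 5.99% were called higher and 54.9% were below 0, with a median of −0.06.

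Srsf6 (Entrez gene 67996, chr2:162931508-162937121 in mm10), an SR protein that binds exonic enhancers and regulates alternative exons, had 2, 12 and 6 counts in heterozygotes and 36, 18 and 29 in wild type. Every mutant library lay below every wild-type library, and mutant replicate 1 was lowest. In TMM-scaled CPM it averaged 0.526 ± 0.430 in heterozygotes and 1.49 ± 0.396 in wild type (SD, n = 3 each). Its log2 fold change was −1.51 (SE 0.44, edgeR adjusted p = 0.0464). Srsf6 was over the filter's cutoff in all wild-type but not all mutant libraries, so its entry to the test leaned on the group where it was high. Its call is given as a description. Fitted with batch as a term, the log2 fold change was −1.52 and the adjusted p 0.00567. Within batches 1, 2 and 3 the log2 differences were −2.69, −0.11 and −1.65, so batch 2 held little of the difference. DESeq2 gave −1.45 with an adjusted p of 0.140, and leaving out 1 library or batch gave −2.43 to −0.91 with adjusted p from 0.00571 to 0.403, under 0.05 in 2 of 9 such fits, those without mutant replicate 2 and without batch 2. Without wild-type replicate 1 the log2 fold change was −1.30 (edgeR adjusted p = 0.126).

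The promoters of Srsf6 and of Prpf8, the snRNP protein with the largest tested difference, are printed because they had the largest fold changes among the genes called, Srsf6 on either scale and Prpf8 with total counts. Both are the 250 bases before the gene's start on the plus strand, from RefSeq on GRCm38.p6 (the mm10 assembly), at chr2:162931258-162931507 and chr11:75486527-75486776. Capitals mark the letters searched on both strands: CCAAT (a box bound by NF-Y), GGGCGG (a GC box) and TGACG (the core of a cAMP response element), with touching matches run together.
Srsf6 promoter: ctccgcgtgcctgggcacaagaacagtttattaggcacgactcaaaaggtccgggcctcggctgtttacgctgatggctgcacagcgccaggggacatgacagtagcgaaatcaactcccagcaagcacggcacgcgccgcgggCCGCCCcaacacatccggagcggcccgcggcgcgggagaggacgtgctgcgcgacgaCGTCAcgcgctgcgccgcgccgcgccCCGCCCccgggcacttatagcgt
Prpf8 promoter: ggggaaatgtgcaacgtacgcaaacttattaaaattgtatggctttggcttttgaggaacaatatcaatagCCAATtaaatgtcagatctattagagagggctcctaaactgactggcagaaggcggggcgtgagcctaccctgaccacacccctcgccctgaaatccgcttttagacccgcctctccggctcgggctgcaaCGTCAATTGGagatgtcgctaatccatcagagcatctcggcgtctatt
The Srsf6 window held 2 GC boxes and 1 TGACG match at 68.4% G and C, and the Prpf8 window held 2 CCAAT matches and 1 TGACG match at 49.6%, and neither held TATAAA. Across 54 promoters of 42 of the 48 genes TGACG stood in 38.9%, against 26.1% of promoters of tested genes and 17.8% of all 32851 mouse promoters in the table. The other letters were found in 42.6% for CCAAT (33.4 and 33.8%), 50% for GGGCGG (58.8 and 32.7%) and 9.26% for TATAAA (7.65 and 12.4%). Median G and C content was 60% for the splicing factors and for tested genes and 52.4% for all. These are matches of letters and do not show binding.

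Srsf7 and Srsf3, close relatives that serve as adaptors for Nxf1 in messenger RNA export, came next but did not pass the test. Srsf7 had 8, 4 and 8 counts in heterozygotes and 36, 10 and 15 in wild type, with a log2 fold change of −1.06 (SE 0.48, edgeR adjusted p = 0.240). Wild-type replicate 1 stood far above the other 5 libraries, and without it the log2 fold change was −0.40. Srsf3 had 10, 9 and 18 counts in heterozygotes and 20, 24 and 44 in wild type, with a log2 fold change of −0.73 (SE 0.35, edgeR adjusted p = 0.273). Its raw counts did not overlap between genotypes, but its TMM-scaled CPM did. Srsf1, the founding SR protein and another export adaptor, had 8, 17 and 22 counts in heterozygotes and 39, 17 and 35 in wild type. Its log2 fold change was −0.43 (SE 0.34, edgeR adjusted p = 0.573). It was −0.24 without wild-type replicate 1 and 0.04 without batch 1.

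The 3 most abundant SR proteins had values near the median of all genes. Srsf5 had 20, 24 and 43 counts in heterozygotes and 49, 35 and 45 in wild type, with a log2 fold change of −0.07 (SE 0.27, edgeR adjusted p = 0.931). Srsf11, an SR protein that interacts with U2AF, had 47, 44 and 54 counts in heterozygotes and 73, 50 and 74 in wild type, with 0.10 (SE 0.23). Srsf2, which stays in the nucleus rather than shuttling, had 14, 23 and 19 counts in heterozygotes and 35, 20 and 20 in wild type, with 0.11 (SE 0.33). In all 3 the TMM-scaled CPM of the genotypes overlapped, and with total counts the log2 fold changes were −0.53, −0.40 and −0.39, near or above the −0.53 of all genes. The remaining tested SR proteins were Tra2a at −0.69 (SE 0.51) and Srsf10, which acts as a repressor when dephosphorylated, at −0.33 (SE 0.42). Srsf4, Srsf9 and Tra2b had 54, 23 and 34 counts in all and were not tested.

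**Figure D4:**
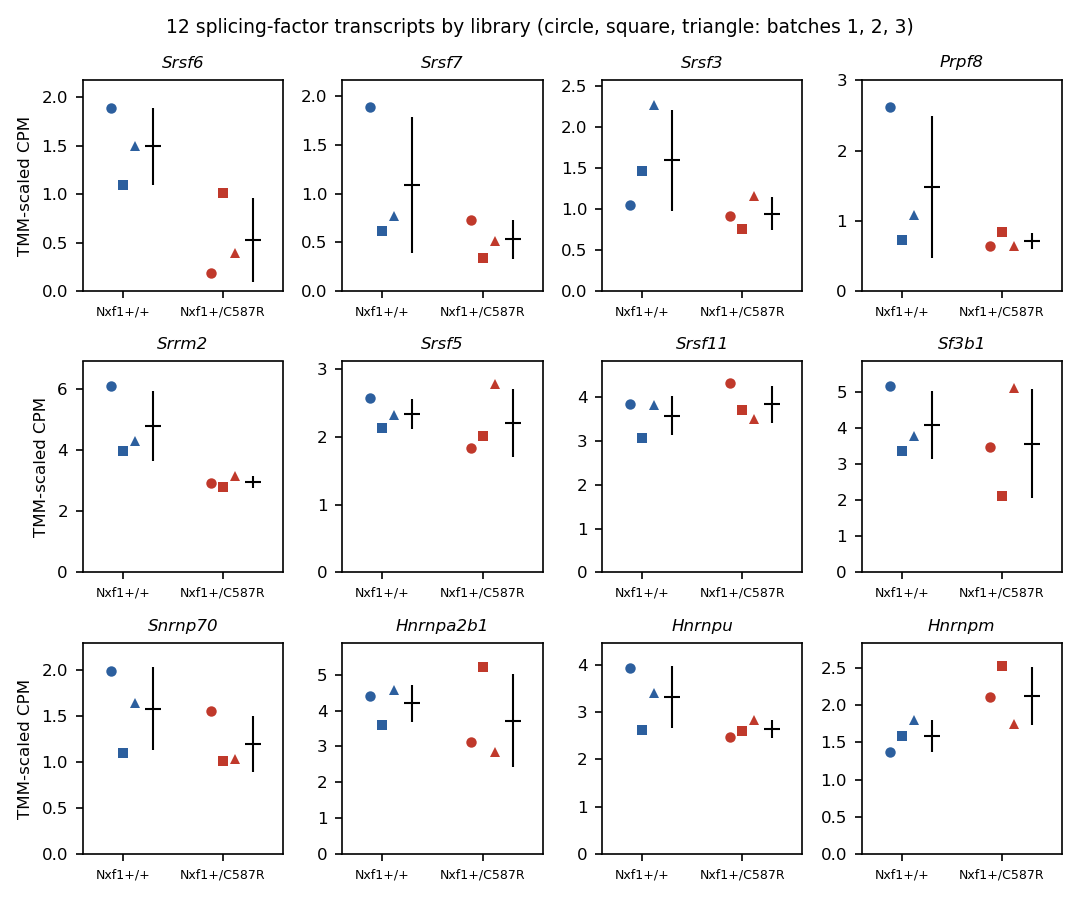
TMM-scaled CPM (vertical axes, each from 0) of 12 transcripts by library, blue for Nxf1+/+ and red for Nxf1+/C587R, with mean and SD (n = 3) beside each group. Srsf6 and Srrm2 are the panels in which the genotypes do not overlap, and in Prpf8 and Srsf7 the wild-type mean is raised by the batch 1 library.

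The snRNP proteins and U2AF were the least well measured group. Their 23 genes gave 74.7, 69.5 and 117 non-globin CPM in heterozygotes and 193, 111 and 124 in wild type, and mutant replicate 3 lay above wild-type replicate 2. Of the 23 only 5 could be tested, 0 were called, all 5 were below 0 and the median log2 fold change was −0.42. The figures over all tested genes were 1.06% called lower, 5.99% called higher, 54.9% below 0 and a median of −0.06. Without wild-type replicate 1 the median was −0.22, and Sf3b1 and Sf3b2 lay above 0, at 0.02 and 0.14. In TMM-scaled CPM the sums were 11.3, 9.58 and 12.3 in heterozygotes and 17.6, 11.2 and 12 in wild type, which also overlap.

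Prpf8, the scaffold of the catalytic centre in U5, had 7, 10 and 10 counts in heterozygotes and 50, 12 and 21 in wild type. The raw counts did not overlap, but wild-type replicate 1 stood far above the other 5 libraries. The log2 fold change was −1.07 (SE 0.46, edgeR adjusted p = 0.215), and −0.37 without wild-type replicate 1. With total counts it was −1.57 (edgeR adjusted p = 0.0486), in which the −0.53 of all genes is included. Prpf6, the bridging protein of the tri-snRNP, had 2, 3 and 12 counts in heterozygotes and 17, 12 and 12 in wild type, with −0.77 (SE 0.49, edgeR adjusted p = 0.461). Its mutant replicate 3 was level with wild type. Prpf31, another tri-snRNP protein, had 17 counts in all.

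Of the U2 proteins Sf3b1 and Sf3b2 were the most abundant per kb. Sf3b1, which clamps the branch point helix, had 38, 25 and 79 counts in heterozygotes and 98, 55 and 73 in wild type, with a log2 fold change of −0.18 (SE 0.29, edgeR adjusted p = 0.825). Mutant replicate 3 lay among the wild-type libraries. Sf3b2 had 26, 11 and 24 counts in heterozygotes and 45, 26 and 26 in wild type, with −0.14 (SE 0.35). Of U2af2, the large subunit that binds the polypyrimidine tract, 6, 7 and 11 counts were seen in heterozygotes and 12, 6 and 10 in wild type, and the groups overlapped. Sf3b3, with 4, 5 and 6 counts in heterozygotes and 10, 9 and 13 in wild type, and Sf3b5, with 1, 1 and 1 against 3, 6 and 4, were not tested, and every mutant lay below every wild type in both. Sf3a1, Sf3a2, Sf3a3 and Sf3b4 had 34, 34, 12 and 16 counts in all, and their genotypes overlapped. U2af1 had 0 counts in each mutant and 1, 2 and 1 in wild type, and since 0 counts allow up to 3, no difference was detectable at this depth.

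In U1, Snrnp70, which binds the first stem loop of U1 RNA and contacts SR proteins, had 17, 12 and 16 counts in heterozygotes and 38, 18 and 32 in wild type. The raw counts did not overlap, with mutant replicate 1 just under wild-type replicate 2, and the log2 fold change was −0.42 (SE 0.33, edgeR adjusted p = 0.561), or −0.22 without wild-type replicate 1. Snrpa and Snrpc had 9 and 4 counts in all.

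The 7 Sm core proteins, which form the ring around each snRNA, had 8, 18 and 15 counts together in heterozygotes and 26, 18 and 22 in wild type, and none was tested. The single genes differed in direction. Snrpb had 1, 1 and 3 counts in heterozygotes and 14, 8 and 7 in wild type, every mutant below every wild type. Snrpd2 had 3, 6 and 7 counts in heterozygotes and 0, 2 and 2 in wild type, every mutant above every wild type. Fitted with no filter, Snrpb had a log2 fold change of −1.91 and Snrpd2 of 2.41, and neither passed (edgeR adjusted p = 0.182 and 0.148). Snrpe had 2, 2 and 0 counts in heterozygotes and 6, 3 and 5 in wild type, and Snrpd1, Snrpd3, Snrpf and Snrpg had 5 to 16 counts each in all. Small genes of this kind have processed copies in the genome, and their counts depend on how reads with several matches were handled.

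The hnRNPs were the most abundant class per kb. Their 6 genes gave 62.6, 87.2 and 90.8 non-globin CPM in heterozygotes and 130, 98.7 and 129 in wild type, and the groups did not overlap on that scale. In TMM-scaled CPM they did, at 9.43, 12 and 9.55 in heterozygotes and 11.9, 9.88 and 12.5 in wild type, a ratio of 0.903. Of the 4 tested 0 were called, 3 were below 0 and the median log2 fold change was −0.22. All tested genes gave 1.06% called lower, 5.99% called higher, 54.9% below 0 and a median of −0.06.

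Hnrnpa2b1, which binds UAG-containing RNA and sorts messages, had 34, 62 and 44 counts in heterozygotes and 84, 59 and 89 in wild type, with a log2 fold change of −0.18 (SE 0.26, edgeR adjusted p = 0.793). Mutant replicate 2 lay above wild-type replicate 2. Hnrnpu, a large chromatin- and RNA-binding scaffold, had 27, 31 and 44 counts in heterozygotes and 75, 43 and 66 in wild type, with −0.33 (SE 0.25, edgeR adjusted p = 0.557), or −0.19 without wild-type replicate 1. Hnrnpc, which packages nascent transcripts and binds uridine tracts, had 14, 10 and 25 counts in heterozygotes and 22, 30 and 31 in wild type, with −0.27 (SE 0.32). Hnrnpm, a regulator of exon skipping, had 23, 30 and 27 counts in heterozygotes and 26, 26 and 35 in wild type. It had the highest value of the 24 at 0.41 (SE 0.29, edgeR adjusted p = 0.511) with TMM scaling, and −0.09 with total counts, so that its direction depends on the scale. Hnrnpa1, usually among the most abundant nuclear proteins, had 1, 1 and 2 counts in heterozygotes and 6, 1 and 12 in wild type, and Hnrnpk had 46 counts in all. Hnrnpa1 also has many processed copies in the genome.

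Among the SR-related and other factors, Srrm2, the scaffold of nuclear speckles, had most counts of all 48. It had 32, 33 and 49 counts in heterozygotes and 116, 65 and 83 in wild type, and the genotypes did not overlap either in raw counts or in TMM-scaled CPM, at 2.96 ± 0.195 and 4.78 ± 1.15 (SD, n = 3 each). Its log2 fold change, −0.69 (SE 0.24), missed the threshold (edgeR adjusted p = 0.112), and it was −0.47 without wild-type replicate 1. With total counts it was −1.17 (edgeR adjusted p = 0.0234). Srrm2 overlaps Elob, which had 1619 counts. The library kit does not mark strand, so reads of the overlap cannot be assigned to either gene with certainty.

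Acin1, a component of the exon junction-associated ASAP complex that is cleaved during chromatin condensation, had 27, 34 and 25 counts in heterozygotes and 53, 51 and 64 in wild type. Its raw counts did not overlap, but with TMM scaling the log2 fold change was −0.42 (SE 0.27, edgeR adjusted p = 0.466). Rbm39, a U2AF-like factor, had 26, 28 and 36 counts in heterozygotes and 68, 48 and 37 in wild type, with −0.25 (SE 0.28), or −0.03 without wild-type replicate 1. Its wild-type libraries ranged widely and replicate 3 was level with the mutants. Puf60 at −0.20 (SE 0.37), Srrm1 at −0.02 (SE 0.31) and Sfpq at 0.15 (SE 0.33) lay within 1 SE of the median of all genes, and Pnn had 57 counts in all. The whole class gave 74.7, 93.3 and 103 non-globin CPM in heterozygotes and 189, 136 and 143 in wild type, with no overlap between genotypes. In TMM-scaled CPM it gave 11.3, 12.9 and 10.8 against 17.3, 13.7 and 13.8, again with none, though 12.9 and 13.7 were close. Among single tested genes, every mutant lay below every wild type in 29.1% as shares of non-globin counts and in 11.1% in TMM-scaled CPM.

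The values differed by library, and the difference between genotypes differed by batch. Wild-type replicate 1 was the highest of the 6 libraries for 12 of the 24 tested splicing factors, and mutant replicate 1 was the lowest for 10. Both belong to batch 1. Wild-type replicate 1 also had the most genes with at least 10 counts (4096), and mutant replicate 1 the fewest (2103). These library ranks were not counted over all tested genes. Within batch 1 the mutant was lower for 20 of the 24, with a median log2 difference of −0.52, against 54.2% and −0.06 for all tested genes. In batch 2 it was lower for 15 with a median of −0.10, against 54.8% and −0.06. In batch 3 it was lower for 16 with a median of −0.27, against 49.0% and 0.01. Of the 24, 9 were lower in all 3 batches (20.3% of tested genes) and 0 higher in all 3 (18.1%). Without batch 1 the median of the 24 that then passed the filter was −0.11. In TMM-scaled CPM, 2 of the 24 (Srsf6 and Srrm2) had every mutant below every wild type, against 11.1% of tested genes, and 0 had the reverse, against 12.3%. As shares of non-globin counts 8 did, against 29.1%, and 0 had the reverse, against 5.81%. Both counts are near their background. Overlap of raw counts was not counted over all tested genes. Over all 48 genes, untested ones included, 7 had every mutant below every wild type in TMM-scaled CPM, against 5.75% of genes with any count, and 2 (Snrpd2 and Snrpd3) above, against 6.17%. That background includes genes with a single count, which cannot separate the groups.

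Noncoding RNAs varied between libraries as well. The list read here mixed nuclear RNAs, which mature red cells should lack, with the snoRNA host genes Snhg1 and Gas5. Its sums therefore do not measure nuclear RNA alone. Of the 8 on the list 7 were seen, and they summed to 52.8, 61.6 and 60.8 non-globin CPM in heterozygotes and 191, 76.8 and 108 in wild type, highest in wild-type replicate 1, where Meg3 alone gave 96 counts. Without Meg3 that library stood at 136. In TMM-scaled CPM the sums overlapped, at 7.97, 8.49 and 6.39 in heterozygotes and 17.4, 7.69 and 10.5 in wild type. Malat1 had 31, 34 and 42 counts in heterozygotes and 86, 43 and 83 in wild type, and Neat1 had 22, 36 and 34 and 119, 48 and 82. Neither passed the test (log2 fold changes −0.45 and −0.89, edgeR adjusted p = 0.395 and 0.0757), although with batch as a term Neat1 had an adjusted p of 0.0407. Gas5 went the other way, with 23, 20 and 17 counts in heterozygotes and 19, 17 and 23 in wild type. Its log2 fold change was 0.57 (SE 0.32, edgeR adjusted p = 0.377), and that of Snhg1 was −0.07 (SE 0.46). The part of these noncoding RNAs in the splicing-factor values was not tested.

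Other genes of the pathway were read from 3 further lists. Of all tested genes 1.06% were called lower, 5.99% were called higher and 54.9% were below 0. Of 66 other spliceosomal proteins 19 were tested and 0 were called, 10 of 19 were below 0 and the median log2 fold change was −0.05, close to the −0.06 of all tested genes. Snrnp200, the U5 helicase, had 8, 11 and 7 counts in heterozygotes and 24, 22 and 24 in wild type, with −0.89 (SE 0.36, edgeR adjusted p = 0.184). Bcas2, a subunit of the Prp19 complex, was at 0.60 (SE 0.28, edgeR adjusted p = 0.264), and Lsm6 of the U6 ring at 0.50 (SE 0.27, edgeR adjusted p = 0.356). Among 30 SR protein kinases, exon junction and SMN complex genes 8 were tested and 0 called, 7 of 8 were below 0 and the median was −0.33. Their 3 smallest p values belonged to Dyrk1a, a kinase of splicing factors, at −0.94 (SE 0.41, edgeR adjusted p = 0.225), and to the SMN complex genes Strap and Gemin7 at −0.49 and −0.38.

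Of 45 other hnRNPs and splicing regulators, 44 were in the files and 29 were tested. Raly, an hnRNP C-like protein, was the only one called, against 1.06% of all tested genes called lower. Of the 29, 22 were below 0, against 54.9% of all tested genes, with a median of −0.24. Raly had 32, 41 and 38 counts in heterozygotes and 95, 93 and 128 in wild type. The groups were well apart, and Raly fell, with a log2 fold change of −0.97 (SE 0.23, edgeR adjusted p = 0.0120). DESeq2 gave an adjusted p of 0.0372 and the fit with batch as a term 0.00485, and leaving out a library or batch gave adjusted p from 0.00873 to 0.268. It missed 0.05 without mutant replicate 1 (0.0879), mutant replicate 3 (0.0897), wild-type replicate 3 (0.0994), batch 2 (0.0672) or batch 3 (0.268). Pcbp2, a poly(C)-binding hnRNP that stabilises globin messages, had 55, 42 and 52 counts in heterozygotes and 112, 109 and 136 in wild type, with −0.72 (SE 0.23, edgeR adjusted p = 0.0645), or 0.0425 with batch as a term. Hnrnpdl, a relative of Hnrnpd, was at −0.86 (SE 0.32, edgeR adjusted p = 0.145).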

How the data were processed

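The authors deposited raw counts per gene, whole numbers with no normalization, in 1 file per library, per the file headers. CASAVA 1.8.2, Subread, featureCounts and the mm10 build are named in the submitters' processing notes. The annotation, the strand and multi-mapping settings and other versions are not given in the sources used here. Entrez numbers were matched to symbols in a RefSeq table (25275 of 27179). The 48 genes, the other lists and the tests were chosen with earlier results of these data known.

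Genotypes were compared with edgeR 4.0.16 in R 4.3.3: robust quasi-likelihood F test, TMM factors, filterByExpr, a genotype term alone, Benjamini-Hochberg adjustment over the whole table, calls at an adjusted p under 0.05. SE is the log2 fold change over root F. Scripts were tested on simulated data. Genes named in full were those called in the main, batch, DESeq2 (1.42.0) or total-count fit and the 3 most abundant per kb of each class, and other members were named with their values known. Alternatives were RLE, total-count and globin-free scaling, no filter or a mean count of at least 50, DESeq2, batch as a term, leaving out each library or batch, and removal of hepatocyte and pancreas genes. A library's 0 counts allow up to 3 counts, counting error only.

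Batch numbers in the labels pair 1 mutant with 1 wild-type library. Deviations of same-batch libraries from their group means correlated at −0.116, −0.0855 and −0.0439.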

Additional observations from a re-analysis of the deposited data

How the results depend on the processing

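With batch as a replicate block, 1 splicing factor was lower (Srsf6, log2 fold change −1.52) and 194 genes were higher and 60 lower; no other call on a splicing factor changed. The count of splicing factors lower, 1 in the main comparison, was 0 with RLE scaling, with globin genes removed, with DESeq2 and with a mean count of at least 50 (where 4 were tested), and 3 with total counts. It was 0 to 1 on leaving out 1 library, 0 without batch 1 and 0 without batch 3, and 0 were higher in every fit run. Over all genes, 30 lower calls became 19 with RLE scaling, 245 with total counts, 19 with globin genes removed, 82 with no filter, 49 with a mean count of at least 50 and 11 with DESeq2. They were 8 to 77 on leaving out 1 library, 19 without batch 2 and 3 without batch 3. The 169 higher calls were 382 with no filter and 66 with a mean count of at least 50, and 137 to 244 on leaving out 1 library. The median of tested splicing factors was −0.77 with total counts.

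Removal of hepatocyte and pancreas genes changed no call on a splicing factor. Small fold changes changed sign. With total counts Srsf2 was at −0.39, Srsf11 at −0.40 and Hnrnpm at −0.088, and Srsf11 was at −0.047 with a mean count of at least 50. Without batch 1, Srsf1 was at 0.037, Srsf5 at 0.16, Sf3b1 at 0.079, Hnrnpa2b1 at 0.015 and Rbm39 at 0.012. Without batch 2, Srsf2 was at −0.15 and Sf3b2 at 0.10, and without batch 3 Hnrnpa2b1 was at 0.14. On leaving out 1 library Srsf2 ran from −0.073 to 0.39, Srsf5 from −0.20 to 0.10, Sf3b1 from −0.47 to 0.13, Sf3b2 from −0.42 to 0.19 and Hnrnpa2b1 from −0.45 to 0.077. None of these passed the test. The cause of these changes was not tested. Mean counts of under 20 per library limit most of the 48 genes.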
